A study of Mus musculus with 111 samples.

Results

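This report describes the lungs of mice killed on day 21 after a single dose of bleomycin, set against the lungs of mice given saline on the same schedule. The rule took the 8 bleomycin and the 8 saline arrays of day 21, 16 of the arrays of a series of 14 groups (13 of 8 mice and 1 of 7), and every probeset that stands for 1 gene, which gave 15707 genes. All mice were male C57BL6/J animals without a genetic change, 7 to 9 weeks old when purchased. Each received either bleomycin (2 U/kg) or saline in 50 μl, sprayed into the trachea once. RNA came from the homogenized left and right lungs of each mouse, and each mouse gave 1 Affymetrix mouse genome array. The other 95 arrays, from days 1 to 14 and days 28 and 35, served here to estimate the spread between mice and for comparisons with neighbouring days. The array mice were not the ones used for lavage, lung function or histology, so the RNA of a lung cannot be set beside the fibrosis of that same lung.

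Bleomycin is an anticancer drug that binds iron and breaks DNA strands. Given into the airways of mice, it injures the alveolar epithelium, draws in inflammatory cells and is followed by deposition of collagen, and it is a widely used model of lung fibrosis. Fibroblasts that deposit matrix, macrophages that take up debris and lipid, and epithelial cells that regenerate the alveolar surface are the cell types most often described in this phase.

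Whole lung was measured. A lower level of a gene in whole lung can come from fewer cells of a type or from less RNA per cell, and these cannot be told apart here. The labelled tissue was checked by its markers. Sftpc, the surfactant protein C gene of alveolar type II cells, had a log2 level of 14.39 to 14.48 in the saline mice and 14.37 to 14.47 in the bleomycin mice, and Ager, a marker of alveolar type I cells, 13.99 to 14.12 and 14.04 to 14.21. The albumin gene Alb, a liver marker, lay between 6.21 and 6.76 in all 16 mice.

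Levels are log2 intensities after RMA normalization, so a difference of 1 is a 2-fold change, and levels of different genes cannot be set against each other on an array. Differences were tested with limma across all 15707 genes, with adjusted p-values after Benjamini-Hochberg. The words rose and fell are kept for genes with an adjusted p under 0.05. Each p-value sets a difference against the spread between mice within groups, estimated over all 14 groups of the series.

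One mouse of each group stood apart, and both carry the number 4. Bleomycin mouse 4 looked more like the saline mice than like its own group: its median correlation over all genes was 0.9788 with the other bleomycin mice and 0.9911 with the saline mice. Over the genes that rose more than 2-fold it lay on average 0.026 log2 above the saline mean, while the other 7 bleomycin mice lay 0.732 to 2.11 above it. Over the genes that fell more than 2-fold it differed by −0.468, and the others by −0.861 to −1.59. Saline mouse 4 had the highest saline levels of several immune genes (the immunoglobulin chain Jchain 13.47 against a saline median of 9.40, the macrophage receptor Trem2 9.62 against 7.81). It also had the lowest saline levels of genes of resident alveolar macrophages (the oxidized lipid receptor Olr1 4.93 against 8.97). What set these mice apart was not tested. Bleomycin mouse 2 was intermediate, with a median correlation of 0.9882 with its own group and 0.9893 with the saline mice. All mice were kept, and where leaving out 1 mouse ended the call of a named gene or moved its value by more than 1.5-fold, the value is given beside it.

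At day 21, 3225 genes were higher and 2965 lower with bleomycin, which is 20.5% and 18.9% of the genes tested. The counts of the gene lists below are to be read against these shares. Of these, 179 genes rose more than 2-fold (1.14%) and 51 fell more than 2-fold (0.325%). Leaving out bleomycin mouse 4 raised the counts past 2-fold to 258 and 93, and 179 and 49 of the genes were shared with the full set. Leaving out both mice 4 gave 277 and 94, with 177 and 50 shared. Each gene was represented by its most variable probeset over all arrays, bleomycin arrays included, a choice that can favour large changes. With the brightest probeset of each gene 147 rose and 43 fell more than 2-fold, and with the mean of its probesets 136 and 37. The bleomycin and saline mice did not overlap in 317 genes that were higher (2.02%) and 397 that were lower (2.53%). Among the genes past 2-fold, 16 of the 179 and 19 of the 51 did not overlap. Without bleomycin mouse 4 these became 108 and 35, because that mouse lay within or below the saline range in 161 of the 179.

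**Figure D1:**
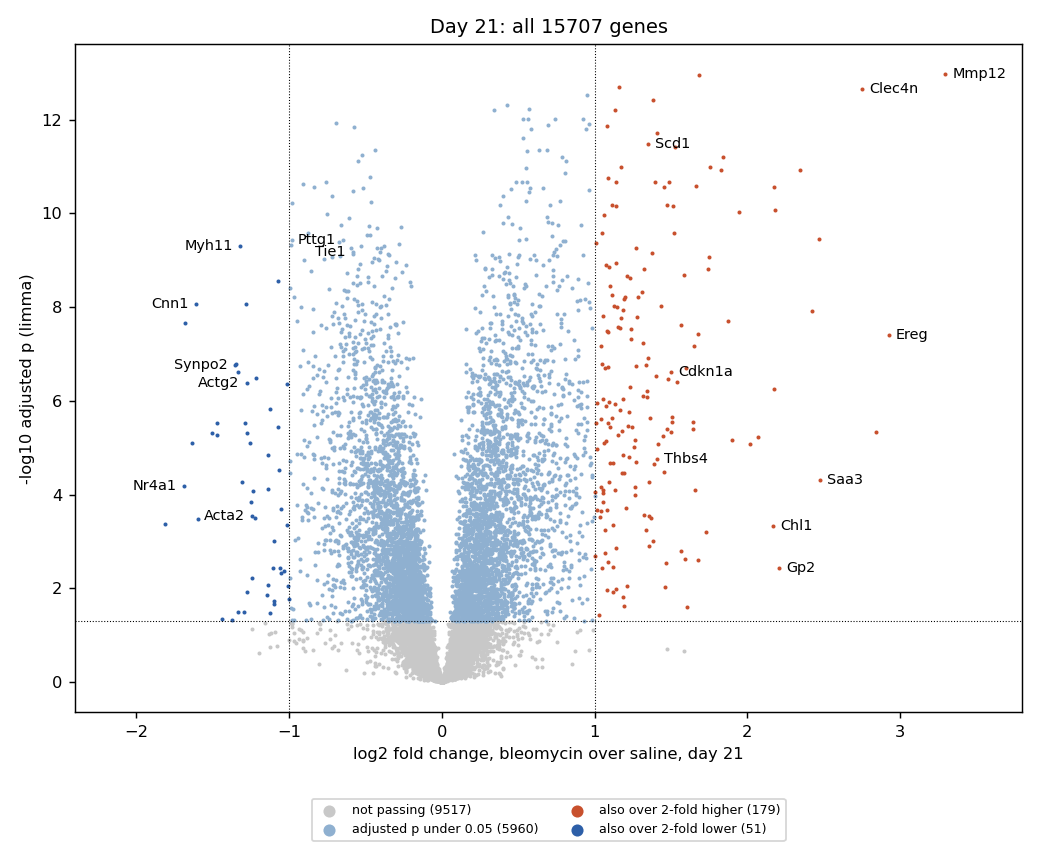
Each point is 1 of the 15707 genes, with the log2 fold change of bleomycin over saline at day 21 on the horizontal axis and −log10 of the adjusted p (limma) on the vertical axis. Red points (179) rose and dark blue points (51) fell more than 2-fold, and dotted lines mark 2-fold and an adjusted p of 0.05.

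The largest rise was that of Mmp12, the elastase of macrophages. Its log2 level was 7.02 at the lowest, 7.79 at the median and 8.10 at the highest in saline mice, and 7.62, 11.53 and 12.10 in bleomycin mice. In 7 of 8 bleomycin mice Mmp12 was above every saline mouse, and the exception was mouse 4. The difference was 3.29 ± 0.31 (SE, log2), a 9.81-fold rise, with an adjusted p of 1.08e-13. Ereg, the gene of the EGF receptor ligand epiregulin, rose 7.6-fold (6.17, 6.86 and 7.53 in saline, 6.24, 10.17 and 11.66 in bleomycin) and was above every saline mouse in the same 7 mice.

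Several of the largest increases were receptors of myeloid cells. Clec4n, the gene of the fungal pattern receptor dectin-2, rose 6.74-fold (saline 7.24, 8.16 and 8.63; bleomycin 8.11, 11.18 and 11.92). Olr1 rose 4.53-fold, and by 1.67 log2 in place of 2.18 without saline mouse 4. Cd200r1, an inhibitory receptor of myeloid cells, had levels of 6.29 to 6.90 in saline mice and rose 3.21-fold (adjusted p = 1.09e-13). Atp6v0d2, a proton pump subunit of macrophages and osteoclasts, rose 3.58-fold (adjusted p = 6.26e-12). For Clec4n, Olr1, Cd200r1 and Atp6v0d2 the groups were separate but for 1 bleomycin mouse.

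Secreted defence proteins were also among the largest increases. Saa3, an acute-phase serum amyloid made in lung epithelium and macrophages, rose 5.55-fold (adjusted p = 4.78e-05). The acute-phase glycoprotein gene Orm1 rose 3.2-fold, the monocyte chemokine gene Ccl12 4.19-fold, and Gp2, which encodes a bacterial receptor of epithelial cells, 4.62-fold. Gp2 and Orm1 were more variable, with 4 of 8 bleomycin mice above every saline mouse. Jchain rose 3.31-fold, but no bleomycin mouse was above saline mouse 4, and without that mouse the difference was 2.22 log2 in place of 1.73. Mmp13, the rodent interstitial collagenase, rose 3.2-fold, the neural adhesion gene Chl1 4.5-fold and Ankrd34b 3.37-fold, each in 7 of 8 mice. The other Chl1 probesets were at 0.755 and 0.703 log2 and did not pass.

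Genes of muscle and of the early transcriptional response led the decreases. Nr4a1, an orphan nuclear receptor induced within minutes by many stimuli, had saline levels of 11.37, 12.08 and 12.71 and bleomycin levels of 10.15, 10.44 and 10.91 (lowest, median and highest). All 8 bleomycin mice lay below every saline mouse, and the level fell by 1.69 ± 0.36 (SE) log2 (adjusted p = 6.44e-05). The day 21 saline mice were high for Nr4a1, and against the saline mice of all days it fell by 0.80 log2. Cnn1, the smooth muscle calponin, fell by 1.61 ± 0.22 log2 (adjusted p = 8.61e-09), and Synpo2, an actin-bundling protein of muscle, fell by 1.35 log2, both without overlap. Tnnt3, a troponin of fast skeletal muscle, fell by 1.60 log2, with 7 of 8 mice below every saline mouse.

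The glutamate receptor subunit gene Gria1 fell by 1.50 log2 (saline 9.25, 9.38 and 9.60; bleomycin 6.96, 7.59 and 9.13), and the membrane protein gene Tmem132d fell by 1.47 log2 (saline 8.43, 8.61 and 8.79; bleomycin 6.26, 7.02 and 8.29). In both, every bleomycin mouse was below every saline mouse, with mouse 4 nearest to saline. The unnamed transcripts 4930426D05Rik and 9530026P05Rik fell by 1.47 and 1.35 log2. Myh6, a cardiac myosin, and Trdn, a muscle calcium-release protein, fell by 1.44 and 1.37 log2, but their adjusted p (0.0458 and 0.0475) rose above 0.05 on leaving out any of 9 and any of 10 of the 16 mice, to at most 0.105 and 0.108.

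**Figure D2:**
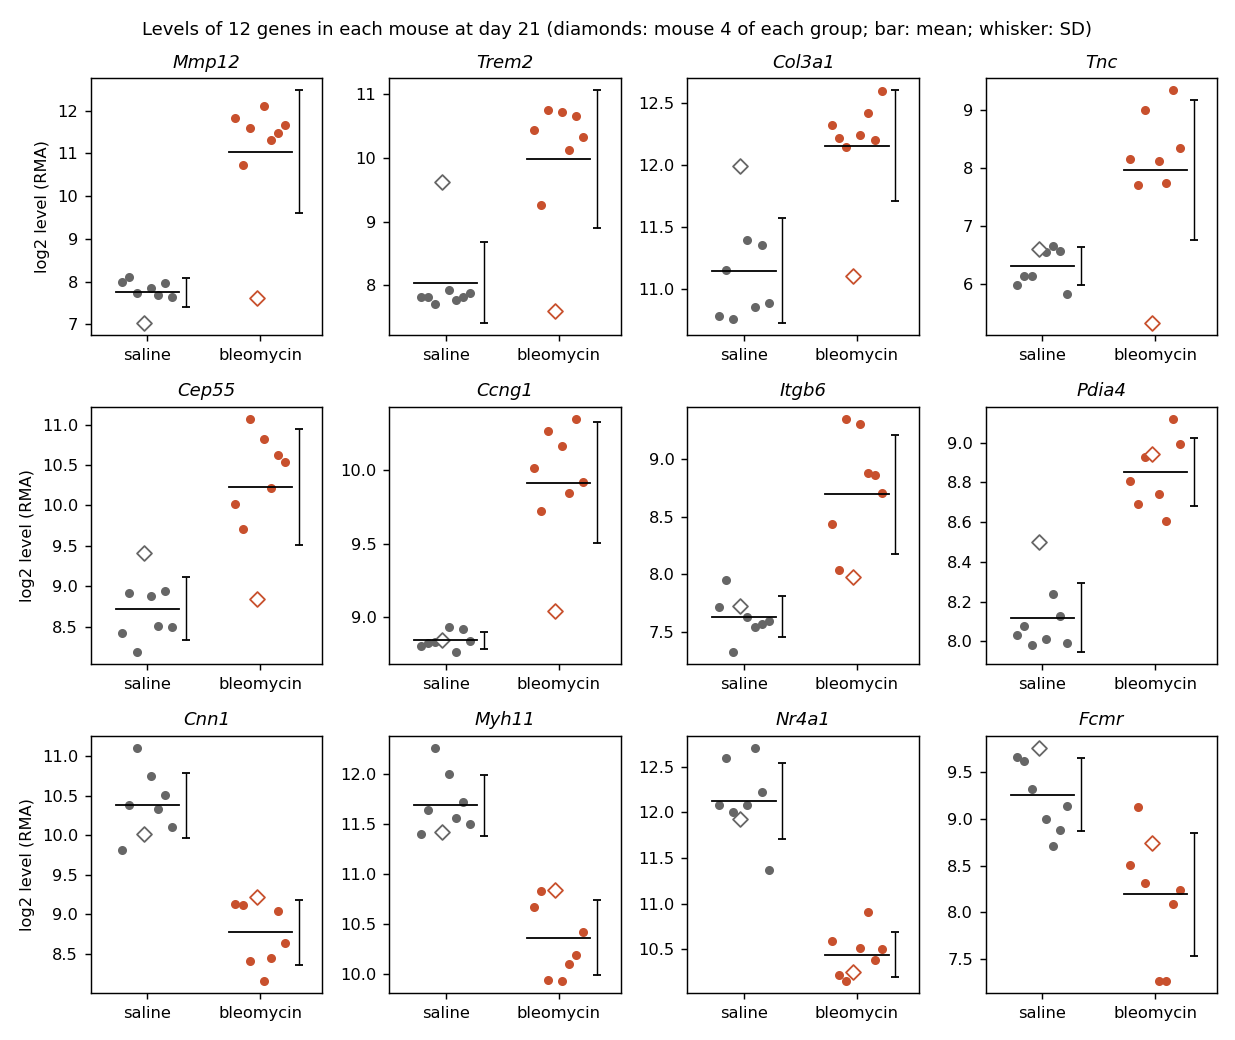
Log2 levels of 12 genes in each of the 16 mice of day 21, with points for mice, bars for the group mean and whiskers for the SD (n = 8). Open diamonds are mouse 4 of each group: bleomycin mouse 4 lies within the saline range or below it for Mmp12, Trem2 and Tnc but below every saline mouse for Cnn1, Myh11 and Nr4a1.

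Macrophages engulf dead cells and debris after injury. Of 21 measured macrophage and complement C1q genes, 19 rose, none fell and 10 rose more than 2-fold, with a median change of 0.968 log2 against 0.0 over all genes. The scavenger receptor Msr1 rose 3.66-fold, the membrane protein Ms4a7 by 1.60 log2, the complement receptor C3ar1 by 1.51 log2 and the IgG receptor Fcgr1 by 1.35 log2. The mean level over the list was 9.49, 9.67 and 10.40 (lowest, median and highest) in saline mice and 9.56, 10.78 and 11.13 in bleomycin mice, and 6 of the bleomycin mice exceeded the highest saline mouse. The highest saline value is that of saline mouse 4 and the lowest bleomycin value that of bleomycin mouse 4. Without both mice the same number of genes rose, with a median of 1.24.

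Genes of macrophages that store and process lipid were part of this rise. Of 20 such genes 16 rose and 1, the fatty acid transporter Cd36, fell (by 0.22 log2). Trem2, a lipid-sensing receptor, had levels of 7.70, 7.81 and 9.62 in saline mice and 7.59, 10.39 and 10.75 in bleomycin mice, a 3.86-fold rise (adjusted p = 9.36e-11), while its other, dimmer probeset was at 0.115 and did not pass. Gpnmb, a glycoprotein of lysosomes, rose by 1.75 log2 and Ctsk, the collagen-degrading cathepsin K, by 1.51 log2. Lipa, the acid lipase of lysosomes, rose by 0.96 ± 0.10 log2 (saline 9.67 to 10.36, bleomycin 10.28 to 11.31, adjusted p = 1.25e-12). The list mean was above every saline mouse in 7 of 8 bleomycin mice.

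Lysosomal genes rose by smaller amounts. Of 33 lysosomal genes 24 rose and 1 fell, with a median of 0.317 log2. The membrane protein gene Lamp2 changed little but without overlap: 11.37 to 11.57 in saline mice and 11.65 to 11.92 in bleomycin mice (0.34 ± 0.04 log2, adjusted p = 6.36e-13). The proteases Ctss and Lgmn each rose by 0.64 log2, and the proton pump subunit Atp6v1a by 0.32 log2 with all 8 mice above saline. The gene that fell was the lysosomal channel Mcoln1, by 0.20 log2.

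A list of genes of multinucleated, osteoclast-like macrophages had 11 of 16 members higher and 1, Mmp9, lower. Acp5, the tartrate-resistant phosphatase, rose by 1.40 log2, the receptor gene Clec5a by 1.32 log2 and Dcstamp, needed for cell fusion, by 1.13 log2. Ibsp, a bone matrix protein, rose by 1.08 log2 without overlap, but its other probeset gave −0.017. Dmp1, another bone matrix protein that belongs to no list here, rose 7.16-fold (saline 4.04 to 6.27, bleomycin 4.72 to 10.09). Its other probesets were higher by less, 0.937 and 1.512 log2.

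Resident alveolar macrophage genes were mixed, with 9 of 16 higher and 2 lower. The interleukin-1 receptor antagonist Il1rn rose by 1.64 log2, the coagulation factor gene F7 by 1.52 log2, Plet1 by 1.21 log2 and the integrin Itgax by 1.14 log2. The keratin gene Krt79 fell by 0.93 log2 (adjusted p = 0.108 with the day 21 arrays alone). Fabp1, a fatty acid binding protein, fell by 1.13 log2, but fell by 1.84 without saline mouse 4, whose level was 4.93 against a saline median of 10.67, and the call was lost on leaving out any of 10 mice (adjusted p at most 0.088). Saline mouse 4 also decided Siglecf, a lectin of alveolar macrophages and eosinophils (0.90 log2 with it, 0.29 with an adjusted p of 0.211 without it), and Csf2ra, the GM-CSF receptor (1.45 and 0.73, with an adjusted p of 0.107 for the day 21 arrays alone). Of 18 genes of alternatively activated macrophages, 8 rose and 2 fell.

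Fibrillar collagens are the main protein of scar. Of 11 fibrillar collagen genes 7 rose, 2 of them more than 2-fold, and none fell (median 0.518 log2). Col3a1 rose by 1.01 ± 0.18 log2 (saline 10.76, 11.02 and 11.99; bleomycin 11.10, 12.23 and 12.59; adjusted p = 2.96e-06), and its other probeset by 0.426. Col1a1, the chain of the most abundant collagen, had saline levels of 11.91, 12.33 and 12.89 and bleomycin levels of 12.31, 12.74 and 12.98, so that 1 of 8 mice exceeded every saline mouse. Its rise was 0.35 ± 0.12 log2 (adjusted p = 0.0159, but 0.062 without saline mouse 1), and 0.421 in its other probeset. Col24a1 rose by 1.65 log2 and Col5a2 by 0.91 log2. Col1a2 rose by 0.63 log2 in the probeset used, while a brighter one was at 0.140 and a dimmer one at −0.141, and neither passed.

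Other collagens changed in both directions. Among 10 basement membrane and anchoring collagens, 4 rose and 2 fell. Col4a3, a chain of the alveolar basement membrane, rose by 0.62 log2 with all 8 mice above saline (10.49 to 10.89 against 10.93 to 11.59), and Col17a1, a hemidesmosome collagen, fell by 0.76 log2. Among 19 further collagens 1 rose and 3 fell, but 4 and 3 without both mice 4, and 6 and 4 against the saline mice of all days. Of 20 genes for collagen processing and cross-linking, 8 rose and 4 fell: the prolyl hydroxylase P4ha3 rose by 0.86 log2 and the collagen chaperone Serpinh1 by 0.47 log2, and Pcolce2, an enhancer of procollagen cleavage, fell by 0.55 log2.

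Elastic fibre and matricellular genes held some of the larger matrix changes. Of 16 elastic fibre genes 5 rose and 2 fell. Eln, the elastin gene, rose 2.25-fold (saline 8.14, 8.24 and 8.96; bleomycin 8.22, 9.59 and 10.05), Fbln7 by 0.82, Mfap5 by 0.81 and Fbn2 by 0.78 log2, while the latent TGF-β binding protein Ltbp4 fell by 0.65 log2 in all 8 mice and Mfap2 by 0.24 log2 (adjusted p = 0.0659 with the day 21 arrays alone). Of 24 adhesive and matricellular genes, 8 rose and 3 fell. Tnc, the tenascin of injured tissue, rose 3.16-fold (saline 5.83 to 6.65; bleomycin 5.32, 8.13 and 9.34). Thbs4, a thrombospondin, rose 2.65-fold and was the member without overlap (saline 5.98 to 6.81, bleomycin 6.82 to 8.52). Cilp rose by 1.03 and Thbs2 by 0.80 log2, and Smoc1 fell by 0.72 log2.

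Of 11 small leucine-rich proteoglycans 4 rose and 3 fell, with Lum, which spaces collagen fibrils, higher by 0.71 log2 and Ecm2 lower by 0.84 log2. Laminin chains had 3 of 9 higher and 2 lower, and Lama1 rose by 1.04 log2. In the hyaluronan list 6 of 14 rose and 1, the lymphatic receptor Lyve1, fell (by 0.56 log2). The hyaluronan receptor Hmmr, which also acts in mitosis, rose by 1.36 log2, and its other probesets were at 0.129, not passing, and 0.41. The synthase Has2 rose by 1.08 log2 and the hyaluronan-degrading Cemip by 1.12 log2, but Has2 lost its call without bleomycin mouse 7 or 3 (adjusted p = 0.0596 and 0.0506), Cemip lost its call without bleomycin mouse 7 (0.0617), and the other Cemip probesets gave −0.024 and −0.048.

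Of 15 matrix metalloproteases 7 rose and 2 fell. Mmp10 rose by 1.33 log2 (adjusted p = 0.0627 with the day 21 arrays alone) and the gelatinase Mmp2 by 0.95 log2. Mmp9, the gelatinase of neutrophils, fell by 1.00 ± 0.32 log2 (saline 8.41, 8.95 and 10.78; bleomycin 7.61, 8.31 and 9.56; adjusted p = 0.00881). Of 4 tissue inhibitors, Timp1 rose (2.56-fold, adjusted p = 0.00124) and was above every saline mouse in 7 mice and below every saline mouse in mouse 4. Of 14 ADAMTS proteases 2 rose, Adamts4 by 1.56 and Adamts12 by 1.27 log2, and 5 fell. In the coagulation and plasminogen list 8 of 25 rose and 2 fell, among them F7 and the fibrinogen chains Fgg (1.26 log2) and Fga (1.05 log2, no overlap). Against the saline mice of all 7 days, Fgg and Fga no longer passed.

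Genes of TGF-β signalling, the main pathway described in fibroblast activation, had 4 of 15 higher and 5 lower, shares near the 20.5% and 18.9% of all genes. Itgb6, the epithelial integrin subunit that activates latent TGF-β, rose 2.09-fold in all 8 mice (saline 7.32 to 7.95, bleomycin 7.98 to 9.35, adjusted p = 1.99e-07). The receptor Tgfbr1 rose by 0.75, Itgav by 0.43 and the ligand Tgfb2 by 0.39 log2. Tgfb1, the main ligand, fell by 0.23 ± 0.08 log2 (adjusted p = 0.0172), but by its other, brighter probeset it was 0.078 higher and did not pass, and the call was lost without bleomycin mouse 3 or 8 (0.064 and 0.0548). The endothelial receptors Eng and Acvrl1 fell by 0.85 and 0.68 log2 and Tgfbr3 by 0.53 log2. The fifth, the transducer Smad2, fell in the probeset used but was 0.275 higher in another, which also passed. Its call was lost without bleomycin mouse 3 or 7 or saline mouse 2 (adjusted p = 0.0853, 0.07 and 0.0659). Of 16 inhibitors of TGF-β and BMP signalling 3 rose and 4 fell. The BMP antagonist Grem1 rose by 1.14 log2, with an adjusted p of 0.0535 without bleomycin mouse 3, and Chrdl1 and the inhibitory Smad6 fell by 0.92 and 0.73 log2.

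Of 20 BMP ligands and targets 3 rose and 3 fell, against 20.5% and 18.9% of all genes. The ligand Bmp6 was lower by 0.87 log2 and the receptor Bmpr2, mutated in heritable pulmonary hypertension, by 0.63 log2. The activin list had 2 of 9 higher and 2 lower. Of 20 Wnt ligands and R-spondins 4 rose and 2 fell. Wnt7b, made by alveolar epithelium, rose by 0.79 ± 0.11 log2 in all 8 mice, Wnt5a by 0.62 and Wnt10a by 0.40 log2, while Wnt2, a mesenchymal ligand, fell by 0.75 log2. Of 17 Wnt inhibitors and feedback targets 4 rose and 4 fell. The 4 that rose were the secreted inhibitors Sfrp1 (1.06 log2), Frzb (0.93 log2), Dkk2 (0.84 log2) and Sfrp2 (0.82 log2).

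In the IGF list 4 of 13 rose and 4 fell, against 20.5% and 18.9% of all genes, so the counts of this and the next lists are read gene by gene. Igf1, made by macrophages and fibroblasts in injured lung, rose 2.41-fold (saline 9.28, 9.86 and 10.89; bleomycin 10.22, 11.30 and 11.57), and Pappa2, a protease of IGF binding proteins, by 1.39 log2. The binding protein Igfbp3 fell by 1.33 ± 0.21 log2 (saline 10.63, 11.24 and 11.41; bleomycin 8.79, 9.73 and 11.17). Of 7 PDGF genes 2 rose and 2 fell: the ligand Pdgfc rose 2.23-fold and the receptors Pdgfra and Pdgfrb fell by 0.72 and 0.41 log2. Of 20 FGF genes 2 rose and 7 fell, Fgfr4 by 0.79 log2. In the EGF receptor list Ereg and Nrg1 (0.88 log2) rose, and Egf fell by 0.56 log2. Egfr fell by 0.71 log2 in the probeset used, while 4 of its 5 other probesets were slightly higher, at 0.006 to 0.215 log2.

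Contractile genes fell. Of 20 contractile and myofibroblast genes 15 fell, 5 of them more than 2-fold, and 1 rose (median −0.578 log2). The list mean was 10.05, 10.20 and 10.62 in saline mice and 9.46, 9.60 and 9.84 in bleomycin mice, and all 8 bleomycin mice, mouse 4 included, lay below every saline mouse. Acta2, the smooth muscle actin used as the marker of myofibroblasts, fell by 1.24 ± 0.29 log2 (saline 6.81, 7.65 and 8.24; bleomycin 6.07, 6.35 and 6.80; adjusted p = 0.000284), and its other probesets fell by 0.715 and 0.921. The smooth muscle myosin Myh11 had levels of 11.40, 11.59 and 12.26 in saline mice and 9.92, 10.30 and 10.83 in bleomycin mice (−1.32 ± 0.17 log2, adjusted p = 4.91e-10). Actg2 fell by 1.28, Des by 0.84, Myl9 by 0.77 and Tagln by 0.65 log2, all without overlap. The exception was the α-actinin gene Actn1 of non-muscle cells, which rose by 0.37 log2 in all 8 mice.

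Of 16 cardiac muscle genes 6 fell and none rose (median −0.906 log2), and their mean level was 10.43 to 11.85 in saline mice and 9.11 to 10.90 in bleomycin mice, with 7 of 8 below every saline mouse. Actc1, cardiac actin, fell by 0.91 log2, and Tnnt2 by 0.98 log2 with an adjusted p of 0.0655 (0.0454 without bleomycin mouse 4). Of 10 skeletal muscle genes 2 fell, Tnnt3 and the creatine kinase Ckm. In bleomycin mouse 4 the contractile mean of 9.84 was below every saline mouse, and the cardiac mean of 10.90 was within the saline range. In the other 7 bleomycin mice both means were below every saline mouse. The part of cardiac and skeletal muscle in the fall of the contractile list was not tested.

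Genes of resident lung fibroblasts fell more often than they rose, 12 against 3 of 24 (median −0.23 log2). Slc7a10, an amino acid transporter, fell by 1.27 ± 0.23 log2 (saline 10.34 to 10.63; bleomycin 8.25, 9.04 and 10.49), the transcription factor Tcf21 of lipofibroblasts by 0.76 log2, and Pdgfra by 0.72 ± 0.10 log2 (saline 10.03 to 10.67; bleomycin 9.12, 9.75 and 10.46). The genes that rose were Plin2 (0.34 log2), which coats lipid droplets in macrophages as well, Gyg (0.21 log2) and the proteoglycan Dcn (0.59 log2). Dcn was −0.081 by a brighter probeset and lost its call on leaving out any of 8 mice (adjusted p at most 0.135), and Gyg and Dcn did not pass against the saline mice of all days. Of 11 mesothelial genes 3 rose and none fell.

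Immediate early genes, which answer within minutes to stress, stretch and growth factors, were lower: 10 of 21 fell and none rose (median −0.33 log2). After Nr4a1, its relative Nr4a2 fell by 1.26, Fosb by 1.11, Egr3 by 1.03, Klf2 by 0.84 and Jun by 0.53 log2, and Nr4a1, Nr4a2, Egr3 and Jun did not overlap. The other Egr3 probeset was at 0.085 and did not pass. The saline mice of day 21 were high for these genes: the saline mean of Nr4a1 was 12.12 at day 21 and 10.56 to 11.62 on the other days, that of Nr4a2 10.15 against 8.55 to 9.17, and that of Fosb 9.45 against 7.46 to 8.83. Against the saline mice of all days Nr4a1 fell by 0.80 log2 (adjusted p = 0.02), Nr4a2 and Egr3 no longer passed, Fosb was 0.03 higher, and 4 of the 21 genes rose and 4 fell.

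**Figure D3:**
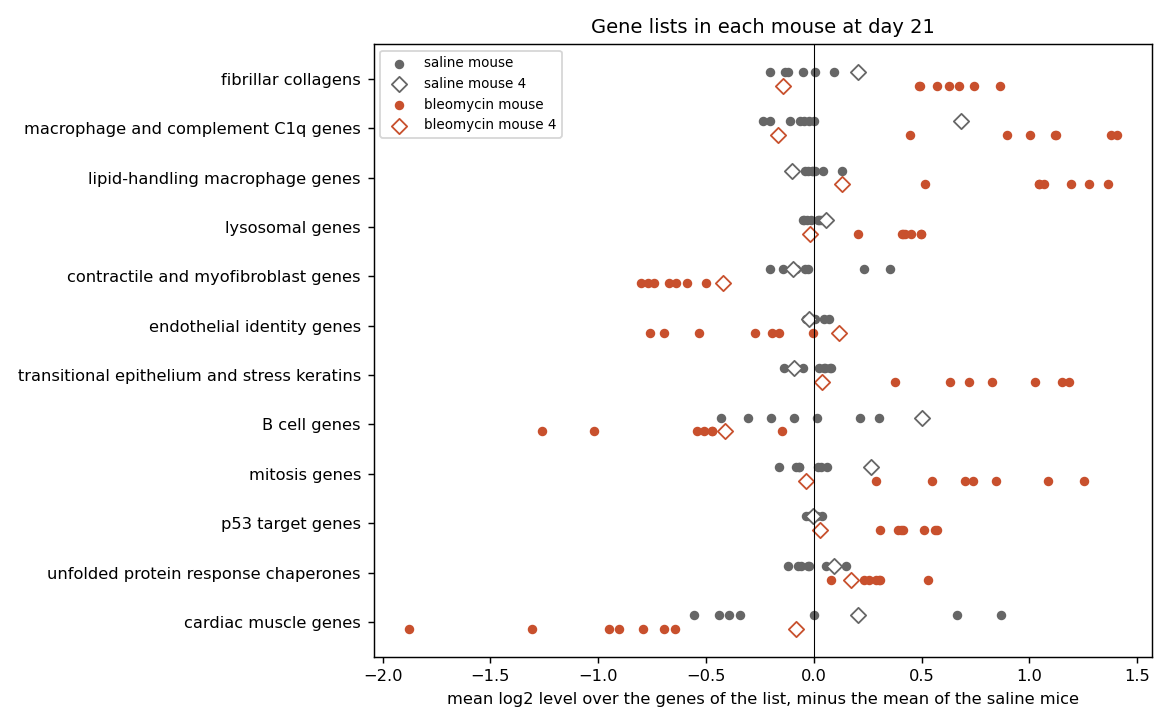
Mean log2 level over the genes of 12 lists in each mouse of day 21, minus the mean of the 8 saline mice, with grey for saline, red for bleomycin and open diamonds for mouse 4 of each group. All 8 bleomycin mice lie below every saline mouse for contractile genes, whereas bleomycin mouse 4 lies among the saline mice for fibrillar collagens, macrophage genes and mitosis genes.

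Several defining epithelial markers did not pass the test. Sftpc differed by 0.01 (adjusted p = 0.808), Sftpb by 0.05 (0.334), Ager by 0.04 (0.339) and the club cell secretoglobin Scgb1a1 by −0.02 log2 (0.576), with levels near the top of the array's range for each. Of 19 alveolar type II and surfactant genes 8 rose and 2 fell, with Ctsh higher by 0.51, the alarmin Il33 by 0.47 (11.58 to 12.09 against 12.09 to 12.52, no overlap), Egfl6 by 0.47 and Lpcat1, a surfactant lipid enzyme, by 0.32 log2. The other Lpcat1 probesets were higher by 0.315 and 0.066 log2. Of 18 alveolar type I genes 6 rose and 1, Cyp4b1, fell (by 0.34 log2), and Lmo7 rose by 0.26 log2. None of 16 club cell genes passed in limma, with 4 at an unadjusted p under 0.05, although 1 rose and 2 fell when both mice 4 were left out, and 5 fell and none rose against the saline mice of all days. Of 32 ciliated cell genes 6 rose and 1 fell, against 20.5% and 18.9% of all genes.

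Genes of the transitional epithelial state, which injured type II cells pass through on the way to type I cells, rose together: 15 of 18 rose, 5 of them more than 2-fold, and none fell (median 0.514 log2). Sprr1a, a cornified envelope protein, rose 4.52-fold (saline 6.64, 6.80 and 7.15; bleomycin 6.61, 9.19 and 10.28), and the tight junction gene Cldn4 2.13-fold (saline 5.08 to 5.69; bleomycin 5.38, 6.32 and 7.88). Itgb6, Anxa1 (0.93 ± 0.17 log2; 6.10 to 6.90 against 6.90 to 7.92) and Cldn18 (0.48 log2; 10.93 to 11.24 against 11.28 to 11.84) were higher in all 8 mice. The other, brighter probesets of Anxa1 and Cldn18 were higher by 0.29 and 0.137 log2. Krt17 rose by 0.70 log2. Lgals3, Fn1 and Cdkn1a in this list are also made by macrophages or fibroblasts. The list mean was 9.97 to 10.19 in saline mice and 10.15, 10.88 and 11.30 in bleomycin mice.

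Of 18 goblet and mucous cell genes 6 rose and none fell. The anion exchanger Slc26a4 rose 5.36-fold (saline 7.32, 7.89 and, in mouse 4, 10.005; bleomycin 7.25, 10.93 and 11.55), with 6 of 8 bleomycin mice above every saline mouse, the ion transport regulator Fxyd4 5.07-fold (7.05 to 7.63 against 7.35, 10.08 and 10.98), the membrane mucin Muc4 by 0.99 and Fam3b by 0.89 log2. The gel-forming mucins Muc5ac (0.42 log2) and Muc5b (0.30 log2) did not pass.

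Endothelial genes fell. Of 25 endothelial identity genes 17 fell and none rose (median −0.331 log2). Eng fell by 0.85 ± 0.12 log2 (saline 11.30 to 11.96; bleomycin 10.04, 10.97 and 11.70), the transcription factor Erg by 0.71, the diaphragm protein Plvap by 0.64 and the VEGF receptor Kdr by 0.57 log2. Tie1, a receptor of the angiopoietin pathway, had a median of 12.14 in saline mice and a highest level of 11.98 in bleomycin mice, the only one of the 25 without overlap (−0.58 ± 0.07 log2, adjusted p = 6.71e-10). Pecam1 fell by 0.43 log2. The list mean was below every saline mouse in 6 bleomycin mice and above every saline mouse in mouse 4 (10.93 against 10.78 to 10.88).

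Of 24 capillary and artery genes 12 fell and 5 rose. The endothelin receptor Ednrb fell by 0.90 log2, whereas the venular chemokine receptor Ackr1 rose by 1.07 log2, Dkk2 by 0.84 log2 and Edn1, the gene of endothelin-1, by 0.48 log2. Of 20 vasomotor genes 10 fell and 2 rose, and of 16 VEGF and angiopoietin genes 10 fell and none rose (median −0.397 log2). Lymphatic endothelial genes divided evenly, 3 of 10 higher and 3 lower.

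Lymphoid genes fell for B and natural killer cells. Of 15 B cell genes 12 fell and none rose (median −0.695 log2). Fcmr, the IgM receptor, fell by 1.07 ± 0.22 log2 (saline 8.71, 9.23 and 9.76; bleomycin 7.26, 8.27 and 9.13), Blk by 0.99, the complement receptor Cr2 by 0.88 and the BAFF receptor Tnfrsf13c by 0.84 log2. Without both mice 4 the count was 10. Of 15 plasma cell and immunoglobulin genes 5 rose and 1 fell: Jchain, Igha (0.98 log2), Slamf7 (0.61 log2, adjusted p = 0.0709 with the day 21 arrays alone), Sdc1 (0.26 log2, also an epithelial gene) and Xbp1 (0.23 log2, also a gene of the unfolded protein response) rose, and Prdm1 fell by 0.37 log2. Igha lost its call on leaving out any of 11 mice (adjusted p at most 0.14) and Prdm1 on leaving out any of 2 (at most 0.0619). Ighm was 1.48 log2 higher and did not pass (adjusted p = 0.196), but passed without saline mouse 4 (2.37 log2, 0.0233). With all mice, the other Ighm probesets were higher by 0.401 to 0.822 log2 and did not pass.

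Of 18 natural killer and cytotoxic genes 9 fell and 1 rose (median −0.349 log2). The sphingosine receptor S1pr5 fell by 0.84, the granzymes Gzma and Gzmb by 0.61 and 0.58, and the transcription factor Eomes by 0.59 log2. Klrg1 rose by 0.46 log2, with an adjusted p of 0.052 without bleomycin mouse 7, and of 0.316 against the saline mice of all days. Against those mice 16 of the 18 genes fell and none rose. In the T cell list 1 of 24 rose, the checkpoint receptor Pdcd1 (0.75 log2, adjusted p = 0.0739 without bleomycin mouse 7), and Cd27 (0.43 log2) and Cd8b1 (0.55 log2) fell. The count was unstable: 4 rose without bleomycin mouse 4, 6 rose without both mice 4, and 5 rose and 9 fell against the saline mice of all days. Cd3d, a chain of the T cell receptor complex, was 9.70 to 10.65 in saline and 9.01 to 10.50 in bleomycin mice and did not pass (−0.28 log2, adjusted p = 0.187), and neither did the pan-leukocyte gene Ptprc (−0.16 log2, 0.42).

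Of 15 dendritic cell genes 9 rose and 1, the migration receptor Ccr7, fell (by 0.56 log2). Itgae rose by 0.93, Cd209a by 0.77 without overlap, Cd207 by 0.66 and Batf3 by 0.60 log2. MHC class II genes had 4 of 8 higher and 1 lower. Neutrophil genes had 2 of 17 higher and 2 lower (median −0.117 log2), but against the saline mice of all days 8 were higher and 1 lower (median 0.239). The lectin receptor Clec4d rose by 1.14 log2 (adjusted p = 0.0536 with the day 21 arrays alone), while the peroxidase Mpo fell by 0.75 log2 with Mmp9. Mpo was 7.20 in the saline mice of day 21 and 4.91 to 5.37 in those of other days, the bleomycin mean was 6.45 against 4.88 to 5.33, and against all saline mice the bleomycin mice of day 21 were 1.07 higher. Of 13 mast cell, basophil and eosinophil genes 4 fell and 1 rose.

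Chemokines and cytokines rose in part. Of 23 CC chemokine and receptor genes 8 rose and 1 fell, with Ccl3 higher by 1.54, the receptor Ccr1 by 1.42 and Ccl6 by 1.41 log2. Of 24 CXC genes 10 rose and 3 fell. The neutrophil chemokines Cxcl2 and Cxcl3 rose by 1.59 and 1.38 log2, and Cxcl9, induced by interferon γ, by 1.46 log2. Cxcl9 had an adjusted p of 0.0568 with the day 21 arrays alone, and its other probeset was at 0.269 and did not pass. The saline mean of Cxcl3 was 4.16 at day 21 and 4.46 to 8.26 on other days, and against all saline mice Cxcl3 was −0.28 and Cxcl2 did not pass. Of 33 interleukins and related cytokines 10 rose and 5 fell. Il6 rose by 1.61 ± 0.60 log2 (saline 4.53, 5.38 and 6.57; bleomycin 4.88, 6.89 and 9.97; adjusted p = 0.0256), but not without bleomycin mouse 7 (0.118), bleomycin mouse 3 (0.0859) or saline mouse 3 (0.0537). The LIF gene Lif rose by 0.90 log2. Of 17 group 2 innate and type 2 genes 4 rose and 2 fell, against 20.5% and 18.9% of all genes.

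Of 14 acute-phase genes 7 rose and none fell (median 0.57 log2), Lrg1 by 1.28 log2, and of 19 complement genes 10 rose and 2 fell, Cfi by 1.45 and C1qb by 1.23 log2. Of 28 interferon-stimulated genes 5 rose (Mx1, Ifit1, Oas2, Zbp1 and Herc6, by 0.39 to 0.68 log2) and none fell. Of all genes 20.5% rose and 18.9% fell. Mx1 and Zbp1 each lost the call on leaving out any of 12 mice (adjusted p at most 0.136 and 0.13). Oas2 lost it on leaving out any of 11 (at most 0.195), and Herc6 without bleomycin mouse 7 (0.0519). In the interferon γ and GTPase list 3 of 21 rose and 2 fell, against the same shares of all genes.

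Genes of cell division were higher. Of 48 mitosis genes 43 rose, 7 of them more than 2-fold, and 1 fell (median 0.727 log2). The list mean was 7.42, 7.55 and 7.84 in saline mice and 7.54, 8.30 and 8.83 in bleomycin mice, and 7 bleomycin mice exceeded the highest saline mouse. Cep55, which organizes the last step of cell separation, rose 2.84-fold (saline 8.18, 8.69 and 9.42; bleomycin 8.84, 10.38 and 11.07; adjusted p = 2.21e-06). Cdk1, the main kinase of mitotic entry, rose 2.33-fold (8.40, 8.60 and 8.99 against 8.71, 9.92 and 10.79). Cdc20, which activates the anaphase ubiquitin ligase, rose 2.28-fold, and Cdca8 (0.93 log2) and the condensin Smc2 (0.76 log2) were higher in all 8 mice.

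Pttg1, the securin that Cdc20 marks for destruction, went the other way. It was 10.83 to 11.03 in saline mice and 10.04, 10.25 and 10.74 in bleomycin mice, lower in all 8 (−0.65 ± 0.08 log2, adjusted p = 3.75e-10). Its other probesets were lower by 0.264 and 0.257 log2.

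Many mitosis genes share promoter letters that the MuvB complexes and the factor NF-Y read: the CHR motif TTTGAA and the CCAAT box. RefSeq promoters (GRCm38.p6, 250 bases before to 50 bases after each start) were matched for 38 of the 48 genes, giving 39 promoters. The CHR was found on either strand in 32 of the 39 (82.1%), against 17.9% of all 32851 promoters of the same length, and CCAAT in 27 (69.2% against 37.4%). Both stood together in 24 (61.5% against 6.95%). The promoters of Cep55 and Cdc20, which rose, and of Pttg1, which fell, are shown because they differ in these motifs: the capitals mark a CHR or CCAAT on either strand, so that the Cep55 run TTCAAA is the CHR read on the other strand. The Cep55 promoter (chr19:38054734-38055033, plus strand) holds 1 CHR, that of Cdc20 (chr4:118437294-118437593, minus strand) 1 CHR and 2 CCAAT boxes, and that of Pttg1 (chr11:43425932-43426231, minus strand) neither.
Cep55: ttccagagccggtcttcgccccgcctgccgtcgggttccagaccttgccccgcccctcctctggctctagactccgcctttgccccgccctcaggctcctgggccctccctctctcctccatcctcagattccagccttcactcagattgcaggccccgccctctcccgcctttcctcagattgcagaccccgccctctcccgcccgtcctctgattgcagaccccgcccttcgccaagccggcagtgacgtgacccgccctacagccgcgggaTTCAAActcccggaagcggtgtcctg
Cdc20: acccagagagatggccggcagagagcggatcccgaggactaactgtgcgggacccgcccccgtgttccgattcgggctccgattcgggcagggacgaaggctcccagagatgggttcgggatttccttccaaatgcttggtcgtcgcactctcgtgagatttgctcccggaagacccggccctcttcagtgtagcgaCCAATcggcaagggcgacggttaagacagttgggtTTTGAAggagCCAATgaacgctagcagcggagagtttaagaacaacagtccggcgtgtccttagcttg
Pttg1: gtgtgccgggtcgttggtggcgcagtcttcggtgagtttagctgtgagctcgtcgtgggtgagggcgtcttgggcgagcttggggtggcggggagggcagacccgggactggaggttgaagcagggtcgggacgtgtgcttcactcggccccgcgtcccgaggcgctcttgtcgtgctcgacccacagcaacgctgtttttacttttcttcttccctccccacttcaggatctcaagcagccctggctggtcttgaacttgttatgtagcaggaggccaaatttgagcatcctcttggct
A match describes the letters only, and binding was not measured. Other promoters of the list also lacked a CHR, while 1 of the 48 genes fell. Whether the motifs go with the direction of change was not tested.

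Of 42 replication genes 20 rose and 2 fell (median 0.194 log2): the methylation maintenance factor Uhrf1 rose by 0.94, Gins2 by 0.72 and the thymidine kinase Tk1 by 0.64 log2. Of 23 G1 cyclins and CDK inhibitors 11 rose and 2 fell, and Ccnd1 (0.50 log2), Ccne2 (0.54 log2) and E2f8 (0.71 log2) did not overlap.

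Of 27 p53 target genes 16 rose and 6 fell (median 0.248 log2). Psrc1, a spindle protein, rose 5.55-fold (7.07, 7.65 and 7.83 against 7.46, 10.45 and 10.76), the death receptor Eda2r by 1.56 log2, and the CDK inhibitor Cdkn1a 2.83-fold (8.54, 8.84 and 9.44 against 8.90, 10.56 and 10.98). The members without overlap were Ccng1 (8.76 to 8.93 against 9.04, 9.97 and 10.35), Phlda3 (0.71 log2), Zmat3 (0.69 ± 0.08 log2, adjusted p = 4.4e-12), Polk (0.35 log2) and Bbc3 (0.34 log2). Bleomycin mouse 4, at 9.04 for Ccng1, was thus above the highest saline mouse. Those that fell included Btg2 (0.49 log2, not passing against the saline mice of all days), also an immediate early gene, and the repair genes Xpc (0.22 log2) and Ddb2 (0.18 log2). Of 26 genes of DNA break repair and damage sensing 13 rose and 3 fell, among them Rad51ap1 (0.95 log2), Chek1 (0.93 log2), Exo1 (0.89 log2) and Brca1 (0.82 log2), which are also expressed in dividing cells. Blmh, the hydrolase that inactivates bleomycin, was 9.99 to 10.45 in saline and 10.15 to 10.47 in bleomycin mice (0.10 ± 0.05 log2, adjusted p = 0.109), and passed without saline mouse 4 (0.0239). The other, brighter Blmh probeset was at −0.05 and did not pass.

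**Figure D4:**
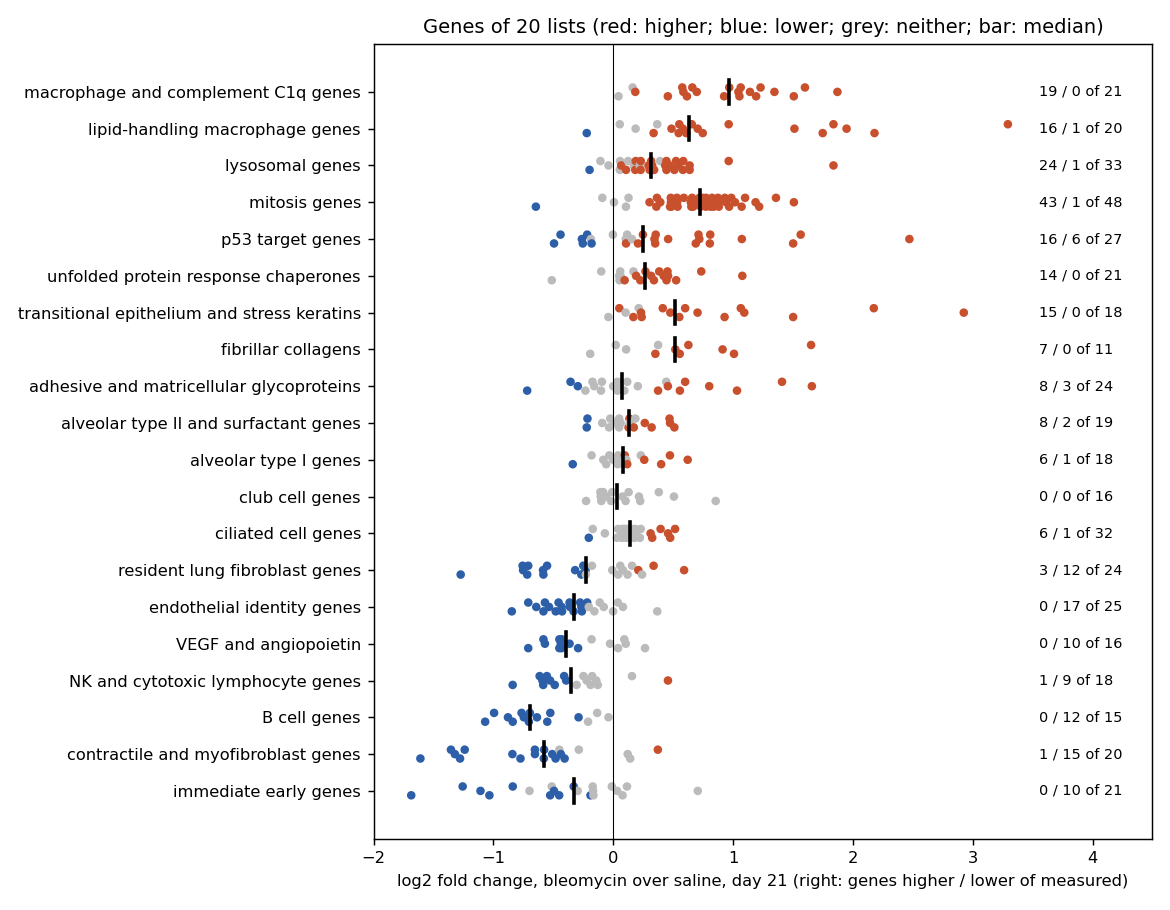
Log2 fold changes at day 21 of the single genes of 20 lists, with red for genes that rose, blue for genes that fell, grey for genes that did not pass and a bar for the list median. The numbers at the right give genes higher and lower of those measured, such as 43 and 1 of 48 mitosis genes and 1 and 15 of 20 contractile genes.

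Chaperones of the unfolded protein response rose: 14 of 21 and none fell (median 0.269 log2). Pdia4, a disulfide isomerase whose other, dimmer probeset was at 0.103 and did not pass, was 7.98 to 8.50 in saline mice and 8.61 to 9.12 in bleomycin mice (0.73 ± 0.12 log2, adjusted p = 7.08e-07), with bleomycin mouse 4 among the others. Hyou1 (0.52 log2) and Canx (0.44 log2) did not overlap either, and Sdf2l1 rose 2.11-fold (adjusted p = 1.25e-09). The transcription factors of the stress branch, Atf4 and Ddit3, did not pass (−0.10 and 0.05 log2). Of 8 heat shock genes 3 rose and none fell (median 0.304 log2), and against the saline mice of all days 7 rose (median 0.728).

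Lipid synthesis was led by Scd1, the stearoyl-CoA desaturase, at 9.51, 9.99 and 10.31 in saline mice and 10.59, 11.42 and 11.64 in bleomycin mice, higher in all 8 (2.55-fold, adjusted p = 3.32e-12). The other, brighter Scd1 probeset was higher by 0.266 log2. Acsl4 rose by 0.64 log2 without overlap. In all, 7 of 22 genes of fatty acid and surfactant lipid synthesis rose and 3 fell, against 5 and 3 of 16 cholesterol synthesis genes and 5 and 2 of 15 amino acid enzymes. The prostaglandin and leukotriene list had 13 of 24 higher and 6 lower, with the thromboxane synthase Tbxas1 (1.01 log2), the receptor Ptger3 (0.85 log2) and Ltc4s (0.78 log2) higher and the receptor Ptgfr (0.68 log2) lower. Of 21 NRF2 and antioxidant genes 8 rose and 4 fell, the cystine transporter Slc7a11 by 0.78 and Hmox1 by 0.70 log2. Cyp1a1, the main target of the aryl hydrocarbon receptor, fell by 1.10 log2 (adjusted p = 0.019, but 0.0662 and 0.052 without bleomycin mouse 3 and 7), and its list had 1 of 15 higher and 3 lower.

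Of 16 circadian clock genes 8 fell and 5 rose. Dbp fell by 0.72 ± 0.15 log2 (11.48 to 11.88 against 10.36, 11.03 and 11.58), Nr1d1 by 0.67 and Per1 by 0.66 log2, and Npas2 rose by 0.74 log2, while its other probeset was at 0.077 and did not pass. Against the saline mice of all days 2 fell and 3 rose, Per1 was −0.05 and Npas2 was 0.114, and neither passed.

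Markers of other tissues that a lung sample can hold passed the test in a few cases. Of 10 fat cell genes 1 rose and 1 fell, and the adipocyte hormone Adipoq ranged from 7.88 to 11.85 in saline and 6.52 to 12.19 in bleomycin mice (adjusted p = 0.56). Of 4 red cell genes none rose and 1 fell, with Alas2 between 6.99 and 9.96 in all mice. Of 6 thymus and lymphoid organ genes 2 fell, with Ptcra at 4.57 to 5.34. Of 10 airway basal and cartilage genes 1 rose and 1 fell, and Krt5 was 0.52 log2 higher with an adjusted p of 0.115 (0.0425 without bleomycin mouse 1). Of 8 nerve genes 1 rose and 1 fell. The part of these tissues in any result above was not tested.

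The response of day 21 was also compared with that of day 14, when 8 bleomycin and 7 saline mice were measured. The comparison subtracts the response of day 14 from that of day 21 and shares no array between them. It differed in 1041 genes (6.63%), 458 above and 583 below, and 42 of those below and 13 of those above differed by more than 2-fold. Of the 583 below, 532 had a positive response at day 14, and of the 458 above, 400 had a negative one, counted by sign alone. The day 14 response is itself part of the tested difference. Such a split therefore comes in part from how these genes were picked. Of the 230 genes past 2-fold at day 21, 26 differed from day 14.

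Matrix genes were among those that had come down. Thbs4 was 3.47 log2 higher at day 14 and 1.41 at day 21 (difference −2.06 ± 0.40, adjusted p = 0.00055), and Eln went from 2.30 to 1.17 log2. Glod5 went from 2.62 to 0.60 log2, no longer passing at day 21 (adjusted p = 0.0724, and 0.0465 without bleomycin mouse 4), Cemip from 3.09 to 1.12, and the lectin gene Chodl from 3.85 to 2.02 log2. Col1a1 was 0.95 log2 higher at day 14 (difference −0.60 ± 0.18). In all, 6 of the 11 fibrillar collagens and 23 of the 48 mitosis genes were below their response at day 14, and none of either list was above it.

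Contractile genes had a different course. At day 14, 3 of the 20 were higher and 2 lower, against 1 and 15 at day 21, and 8 had a response below that of day 14. Tagln was 0.09 log2 higher at day 14 and did not pass (difference −0.74 ± 0.13, adjusted p = 0.00022). For Actg2 the day 14 difference was 0.05 log2, for Cnn1 −0.38 and for Myh11 −0.37. The bleomycin mean of Cnn1 was 9.86 at day 14 and 8.77 at day 21, while the saline mean was 10.24 and 10.38. At day 28, 15 of the 20 fell and at day 35, 6, but by the test of the difference none of the 20 differed from its response at day 21 on either day.

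Genes of some epithelial lists, and mesothelial genes, were among those whose response was above that of day 14. The type II cell list had 11 genes lower at day 14 and 2 at day 21, and 9 of its 19 genes were above their day 14 response. For ciliated cells these numbers were 10, 1 and 6, for mesothelial genes 7, 0 and 7, and for club cell genes 10, 0 and 4. Cyp1a1 went from −3.05 to −1.10 log2, Fabp1 from −3.17 to −1.13 and Igfbp3 from −2.43 to −1.33 log2. The unfolded protein response was different, with 5 genes higher and 3 lower at day 14 and 14 higher at day 21. Of its 21 genes, 8 were above their day 14 response. Scd1 went from 0.49 to 1.35 log2. Cxcl3 and Cxcl2 went from −0.86 and −0.36 log2 (neither passing) to 1.38 and 1.59. The saline mean of Cxcl3 was 8.26 at day 14 and 4.16 at day 21, and its bleomycin mean 7.40 and 5.54.

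The later days differed from day 21 in few single genes. Against day 28 the response differed in 13 genes (0.0828%), 9 above and 4 below, with 1786 at an unadjusted p under 0.05. Rad51c, a DNA repair gene, was 0.56 log2 higher at day 21 and −0.21 at day 28. Chac2 was 0.55 and 0.10, the GDP-fucose transporter Slc35c1 0.44 and 0.05, and Cxcl3 1.38 and −0.82 log2. The transcriptional regulators Trim24 and Tbx5 were lower at day 21 (0.39 and 0.44 log2) and at 0.20 and 0.01 log2 at day 28, Inafm1 was −0.46 and −0.13, and Bag6 −0.20 and −0.03 log2. The count moved with single mice: it was 117 without bleomycin mouse 4, 74 without bleomycin mouse 2 and 46 without saline mouse 6. It was 5 without bleomycin mouse 3 or 6, and 3 without bleomycin mouse 5 or 7 or saline mouse 1, 2 or 3.

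Against day 35 the response differed in 6 genes (0.0382%), with 1497 at an unadjusted p under 0.05. The insulin-degrading enzyme gene Ide was 0.62 log2 higher at day 21 and 0.74 lower at day 35 (the day 21 call did not hold against the saline mice of all days), and the adaptor Dab1 0.88 and −0.16 log2. Dkk3, Dock6, Paf1 and the Wnt transducer Dvl1 were −0.10, −0.49, −0.26 and −0.10 log2 at day 21 and 0.33, −0.10, −0.02 and 0.12 log2 at day 35. The count was 52 without bleomycin mouse 4, 11 without bleomycin mouse 1, 2 without bleomycin mouse 3 or 8 or saline mouse 8, 1 without bleomycin mouse 7 or saline mouse 6 and 0 without saline mouse 3. The call of Dvl1 at day 21 itself was lost without any of 3 mice (adjusted p at most 0.0672).

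By list, 47 of 48 mitosis genes were higher at day 14, 43 at day 21, 4 at day 28 and 3 at day 35. Fibrillar collagens counted 9, 7, 4 and 6 of 11 on the same days, whereas macrophage and C1q genes counted 20, 19, 19 and 18 of 21. B cell genes that fell numbered 8, 12, 3 and 13 of 15, and natural killer and cytotoxic genes 10, 9, 3 and 15 of 18. Endothelial genes that fell numbered 12, 17, 12 and 12 of 25. No gene of these 6 lists differed from its day 28 or day 35 response by the test of the difference. That test judged single genes and its counts moved with single mice, so it cannot decide whether a list changed after day 21. Without bleomycin mouse 4 the genes that differed went from 13 to 117 against day 28 and from 6 to 52 against day 35. The median of the mitosis genes was 0.727 log2 at day 21, 0.271 at day 28 and 0.142 at day 35. That of the natural killer and cytotoxic genes was −0.349, −0.289 and −0.686. Changes of whole lists between days were not tested. Of the 179 genes past 2-fold higher at day 21, 131 were so at day 7, 138 at day 14, 75 at day 28 and 79 at day 35. Of the 51 past 2-fold lower, the numbers were 16, 24, 17 and 27. These are counts past a threshold: by the test of the difference, 26 of the 230 genes differed from day 14, 1 from day 28 and none from day 35.

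**Figure D5:**
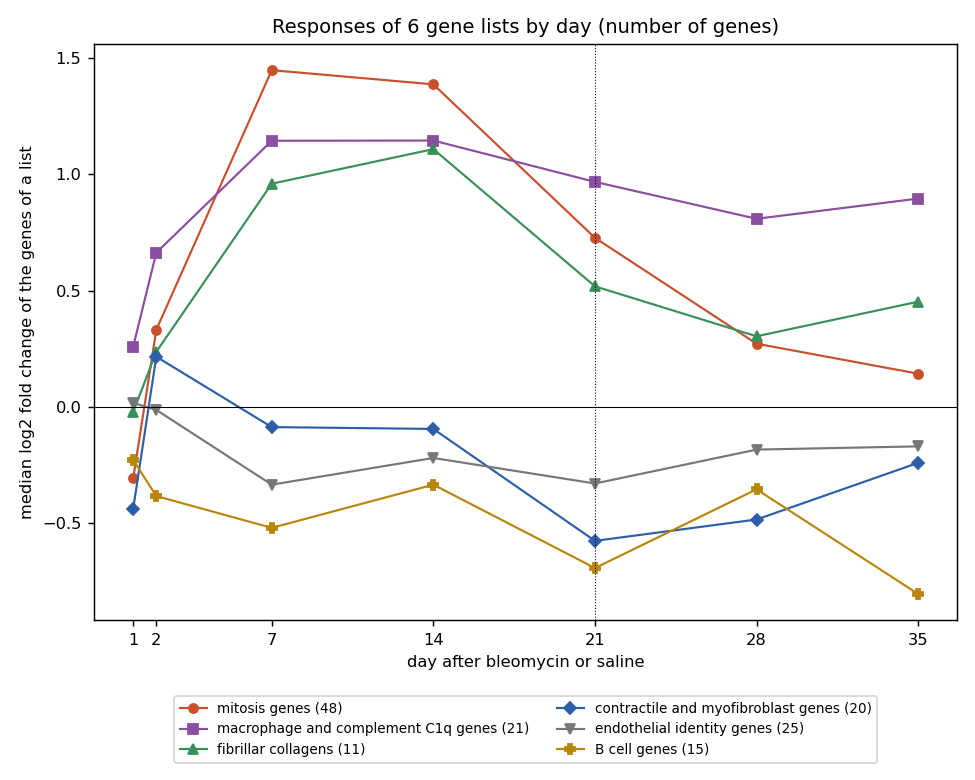
Median log2 fold change of bleomycin over saline of the genes of 6 lists on each day, with the number of genes in brackets and a dotted line at day 21. The median of the mitosis genes was 1.39 at day 14, 0.727 at day 21 and 0.142 at day 35, while that of the contractile genes was −0.578 at day 21.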

How the data were processed

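Lung RNA of 111 mice in 14 groups (bleomycin or saline, 7 days) was measured on Affymetrix mouse genome arrays, after amplification with the NuGEN Ovation kit. The deposited log2 values had been background-corrected, quantile-normalized and summarized by the authors with RMA. The levels of very bright probesets may be compressed. The authors removed 1 saline array of day 14. No scan date or batch is given in the sources used here. The 32688 probesets had 27871 that stood for 1 gene, 314 that stood for several and 4503 for no named gene, and 27761 symbols were looked up by gene id. Each of 15707 genes was represented by its most variable probeset over all arrays, of which 7093 had more than 1. The array medians of day 21 lay between 8.614 and 8.713, and no pair of arrays was identical. The number of arrays limits the precision.

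Group means were fitted over all 111 arrays with limma 3.58.1 in R 4.3.3 (lmFit and eBayes), with Benjamini-Hochberg adjustment over all 15707 genes, a threshold of 0.05 and, where stated, a change above 2-fold. The response of day 21 was contrasted with those of days 14, 28 and 35. Named were the 12 largest increases and 10 largest decreases past both thresholds with every bleomycin mouse on one side of the saline mean, for each of 81 gene lists up to 4 leading members per direction and its defining members, the 4 largest differences per direction between days, and Col1a1, Col3a1, Acta2, Tgfb1, Mmp12, Timp1, Sftpc, Ager, Cdk1, Pttg1 and Blmh whatever their values. Dmp1, Muc5ac, Muc5b, Atf4, Ddit3, Lgals3, Fn1 and Ckm, where outside this rule, were chosen after their values were seen. Spp1 and Krt8 were not analysed here. The members and lists were chosen with earlier results of these data known. Alternatives covered the choice of probeset, a filter on the 30% dimmest genes, normalization, array weights, the control arrays and leaving out each mouse.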

Additional observations from a re-analysis of the deposited data

Results flagged for a closer look

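In the 2 groups of 8 mice, 45 genes and 12 list means were examined for a mouse far from the rest, by Dixon's test. Of 114 values 18 passed, and chance passes about 1 in 20 groups. All 9 in the bleomycin group were mouse 4, the lowest for Mmp12 (7.62), Trem2 (7.59), Col3a1 (11.1), Col1a1 (12.31), Tnc (5.32), Igf1 (10.22), Slc26a4 (7.25), Cdkn1a (8.9) and the mean of the fibrillar collagens (8.35). In the saline group mouse 4 was the highest for Saa3 (11.28), Trem2 (9.62), Eln (8.96), Slc26a4 (10.005), Jchain (13.47) and the macrophage and C1q list (10.4), and the lowest for Mmp12 (7.02) and Pdgfra (10.03). Saline mouse 1 had the highest Sftpc (14.48). The cause was not tested.

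Responses that differed between days by the test of the difference were flagged for named genes. Against day 14, the response of day 21 differed in log2 by −2.06 for Thbs4, −2.02 for Glod5, −1.97 for Cemip, −1.83 for Chodl, −1.33 for Actg2, −1.23 for Cnn1, −1.13 for Eln and for Col24a1, −0.95 for Myh11, −0.9 for Cdca8, −0.75 for Tk1, −0.74 for Tagln, −0.73 for Des, −0.66 for Myl9 and −0.6 for Col1a1. It was above for Cxcl3 (2.24), Fabp1 (2.05), Cxcl2 (1.95), Cyp1a1 (1.95), Igfbp3 (1.1), Scd1 (0.86) and Sdf2l1 (0.79). Against day 28 the differences were −0.59 for Trim24, −0.45 for Tbx5, −0.33 for Inafm1, −0.17 for Bag6, 2.2 for Cxcl3, 0.77 for Rad51c, 0.45 for Chac2 and 0.39 for Slc35c1. Against day 35 they were −0.43 for Dkk3, −0.39 for Dock6, −0.23 for Paf1, −0.22 for Dvl1, 1.35 for Ide and 1.04 for Dab1.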

How the results depend on the processing

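Of 3417 values of the 315 genes under 11 other settings, 3276 kept direction and side of the threshold, 109 lost and 15 gained the call and 17 changed sign. With the brightest probeset of a gene the sign changed for Dcn (−0.081), Cemip (−0.024), Adamts9 (0.389), Tgfb1 (0.078), Smad2 (0.275), Smurf1 (−0.04), Egfr (0.006), Abca3 (0.052), Clic5 (−0.027), Spock2 (−0.02) and Ibsp (−0.017), and with the mean of probesets for Smad2 (0.049). Against the saline mice of all days it changed for Mpo (1.068), Cxcl3 (−0.283), Plk3 (0.017), Arntl (−0.351) and Fosb (0.03). The setting that ended most calls, 34 of the 109, fitted the 16 arrays of day 21 alone, and among genes named in the report it did so for Dcn (adjusted p = 0.0733), Mfap2 (0.0659), Mmp10 (0.0627), Grem1 (0.0576), Fabp1 (0.254), Krt79 (0.108), Clec4d (0.0536), Mpo (0.0639), Igha (0.213), Slamf7 (0.0709), Prdm1 (0.0893), Pdcd1 (0.118), Cxcl9 (0.0568), Il6 (0.0564), Mx1 (0.104), Oas2 (0.161), Zbp1 (0.0974), Dvl1 (0.105), Siglecf (0.248) and Csf2ra (0.107). The saline mice of all days as control ended 25 calls. Other probesets that did not pass, beside those given in the report, were those of Brca1 (−0.121), Exo1 (0.033), E2f8 (0.125), Frzb (0.234), Lif (0.143), Itgav (0.087 and 0.071), Lmo7 (0.105), Mcoln1 (−0.003), Dock6 (−0.101), Trim24 (−0.054), Herc6 (−0.054, 0.242 and 0.148), Zbp1 (0.057), Myh6 (−1.173) and Trdn (−1.108). The cause was not tested. Of 4374 list counts 4023 stayed within 1.5 times. Genes past 2-fold lower numbered 89 with array weights and 94 without both mice 4, a setting chosen after seeing the data, and those past 2-fold higher 277 without both mice 4. The response differed from day 14 in 1669 genes with array weights. Against day 28 it differed in 25 (brightest probeset), 21 (mean of probesets), 20 (without the dimmest genes), 4 (quantile normalization once more), 339 (array weights), 56 (replicate block) and 157 genes (without both mice 4). Against day 35 it differed in 2 (brightest probeset), 12 (mean of probesets), 174 (array weights) and 83 genes (without both mice 4).

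Leaving out 1 mouse gave 2797 to 3459 higher and 2597 to 3167 lower genes, 143 to 258 and 41 to 93 past 2-fold, and 820 to 1096, 3 to 117 and 0 to 52 genes that differed from days 14, 28 and 35. Mice with the same number share no source in the labels, and their deviations correlated at −0.189 to 0.3. The replicate block gave 3269 higher and 3022 lower genes, 179 and 50 past 2-fold, and 1185, 56 and 7 that differed from days 14, 28 and 35. Changes of the brightest probesets may be compressed, and dim ones lie near background.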
